A study of Mus musculus with 8 samples.

Results

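The 8 genes described here carry the liver through a fast: Pck1, G6pc, Fbp1, Ppargc1a, Ppara, Cpt1a, Fgf21 and Igfbp1. They were taken by name, and the CGs examined were those in the gene body and 5 kb on each side (mm9, GENCODE M1). Of 18774 protein-coding genes with a CG covered by at least 10 reads in a mouse, these were 8. They held 395 of the 1411453 CGs at that depth, each strand of a CG counted as 1 site. Only 60 of the 395 reached 10 reads in all 8 mice, and 142 did so in the 7 mice other than the DBA male.

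Livers came from 8 mice aged 16 weeks, all fasted for 16 h, so a fed liver was not compared. They were 1 female and 1 male of C57BL/6J (B6), of DBA/2J (DBA), of BXD F1 (B6 mother, DBA father) and of DXB F1 (DBA mother, B6 father). Reduced representation bisulfite sequencing (RRBS) reads DNA cut at CCGG by MspI, and a cytosine's methylation level is the share of its reads that stayed C after bisulfite. Liver is a mixture of cells, so a level is an average over cells and chromosomes.

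The libraries held from 200744653 to 845527087 cytosine calls, and from 527351 (DBA male) to 1227747 (B6 female) CGs at 10 reads. Reads ended at different distances from the cut site. The 99th percentile of that distance on chromosome 19 was 99 bases in both female parents and the BXD male, 75 in the B6 male, 76 in the DBA male, and 50 in the other 3 F1 mice. Cross and read length therefore cannot be fully told apart here. Reads that overlap a strain-specific base also showed the parent of origin. Within 1 Mb of each member, the library labelled B6 male carried the DBA base in 34.4% of such calls near Ppara, 44.9% near G6pc, 71.4% near Fbp1 and 97.1% near Igfbp1 (34 calls with the B6 base and 1150 with the DBA base). It carried at most 0.573% near Pck1, Ppargc1a, Cpt1a and Fgf21. Male comparisons at the first 4 genes are given with that limit. Of 8 liver marker genes only 2 had a promoter CG at 10 reads, Fgb (median over mice 28.5%) and Serpina1a (69.9%), so the tissue label could not be checked well. Among markers of muscle and brain, the median promoter level over mice was 75.3% in Ckm, 75.7% in Gfap, 56.0% in Syp and 9.16% in Mbp. Single mice ranged from 7.50% to 69.6% in Syp.

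During a fast, glucagon and glucocorticoids raise hepatic glucose output and the nuclear receptor PPARα turns on fatty acid oxidation and ketone body formation. Ppara encodes that receptor and Ppargc1a a coactivator, PGC-1α, that works with it and with the gluconeogenic program. Pck1, Fbp1 and G6pc encode the cytosolic PEP carboxykinase, fructose-1,6-bisphosphatase and the catalytic subunit of glucose-6-phosphatase, which are control steps of gluconeogenesis. Cpt1a encodes the carnitine palmitoyltransferase that admits long-chain fatty acids to mitochondria, Fgf21 a hormone made by fasted liver, and Igfbp1 a secreted binding protein of insulin-like growth factors. In mammals CG-rich promoters are usually unmethylated and CG-poor sequence is mostly methylated.

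Sequences are shown for 6 windows whose levels in the mice are described below. CGs that differed between mice also lay outside them. The sequences were read from the mm9 genome, 5′ to 3′, with the CGs covered by at least 10 reads in a mouse in capitals. Fbp1 and Fgf21 are transcribed from the opposite strand.
Ppara, chr15:85618931-85619152, plus strand: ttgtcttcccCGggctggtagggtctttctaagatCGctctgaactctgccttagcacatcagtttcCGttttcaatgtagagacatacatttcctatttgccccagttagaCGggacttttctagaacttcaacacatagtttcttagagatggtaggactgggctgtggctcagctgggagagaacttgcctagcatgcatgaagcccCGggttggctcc
Pck1, chr2:172981533-172981706, plus strand: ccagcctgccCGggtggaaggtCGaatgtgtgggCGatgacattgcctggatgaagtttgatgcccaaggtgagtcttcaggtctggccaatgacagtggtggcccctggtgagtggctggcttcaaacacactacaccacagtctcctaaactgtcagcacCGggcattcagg
Fbp1, chr13:62988789-62988995, plus strand: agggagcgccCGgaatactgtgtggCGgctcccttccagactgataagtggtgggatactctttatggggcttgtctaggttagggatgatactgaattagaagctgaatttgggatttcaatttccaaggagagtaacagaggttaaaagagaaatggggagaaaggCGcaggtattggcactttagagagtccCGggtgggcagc
Cpt1a, chr19:3333671-3333894, plus strand: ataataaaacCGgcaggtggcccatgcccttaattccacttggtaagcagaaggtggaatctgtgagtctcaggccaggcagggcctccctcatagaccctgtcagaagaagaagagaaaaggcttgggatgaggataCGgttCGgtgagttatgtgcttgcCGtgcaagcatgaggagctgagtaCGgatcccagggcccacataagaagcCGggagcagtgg
Fgf21, chr7:52872725-52872912, plus strand: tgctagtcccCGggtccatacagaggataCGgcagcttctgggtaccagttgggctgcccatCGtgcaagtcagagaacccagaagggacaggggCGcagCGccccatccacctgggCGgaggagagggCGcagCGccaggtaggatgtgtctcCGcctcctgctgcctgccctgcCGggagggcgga
Igfbp1, chr11:7097259-7097517, plus strand: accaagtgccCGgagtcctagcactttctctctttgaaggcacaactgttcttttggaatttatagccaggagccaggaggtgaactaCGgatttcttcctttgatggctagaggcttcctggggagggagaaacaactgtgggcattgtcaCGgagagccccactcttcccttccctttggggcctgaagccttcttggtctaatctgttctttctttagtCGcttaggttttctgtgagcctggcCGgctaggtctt

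Each window lay between CCGG sites, 2 in each, because RRBS fragments start and end there. The Ppara, Fbp1 and Cpt1a windows were intronic, the Pck1 window ran from a coding exon into the next intron, and the Fgf21 and Igfbp1 windows were upstream of the gene.

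Over the 8 regions, 244 of 395 CGs (61.8%) had a mean level below 20%, 73 (18.5%) lay from 20% to 80% and 78 (19.7%) above 80%. Over all CGs at 10 reads these shares were 43.4%, 19.6% and 36.9%. Most of the low sites sat in Ppara (126 of its 153 CGs) and Cpt1a (102 of 125), with 9 in Fgf21, 3 in Igfbp1 and 2 each in Pck1 and Fbp1. In Ppargc1a all 14 CGs were above 80%, and in Pck1 none was.

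**Figure D1:**
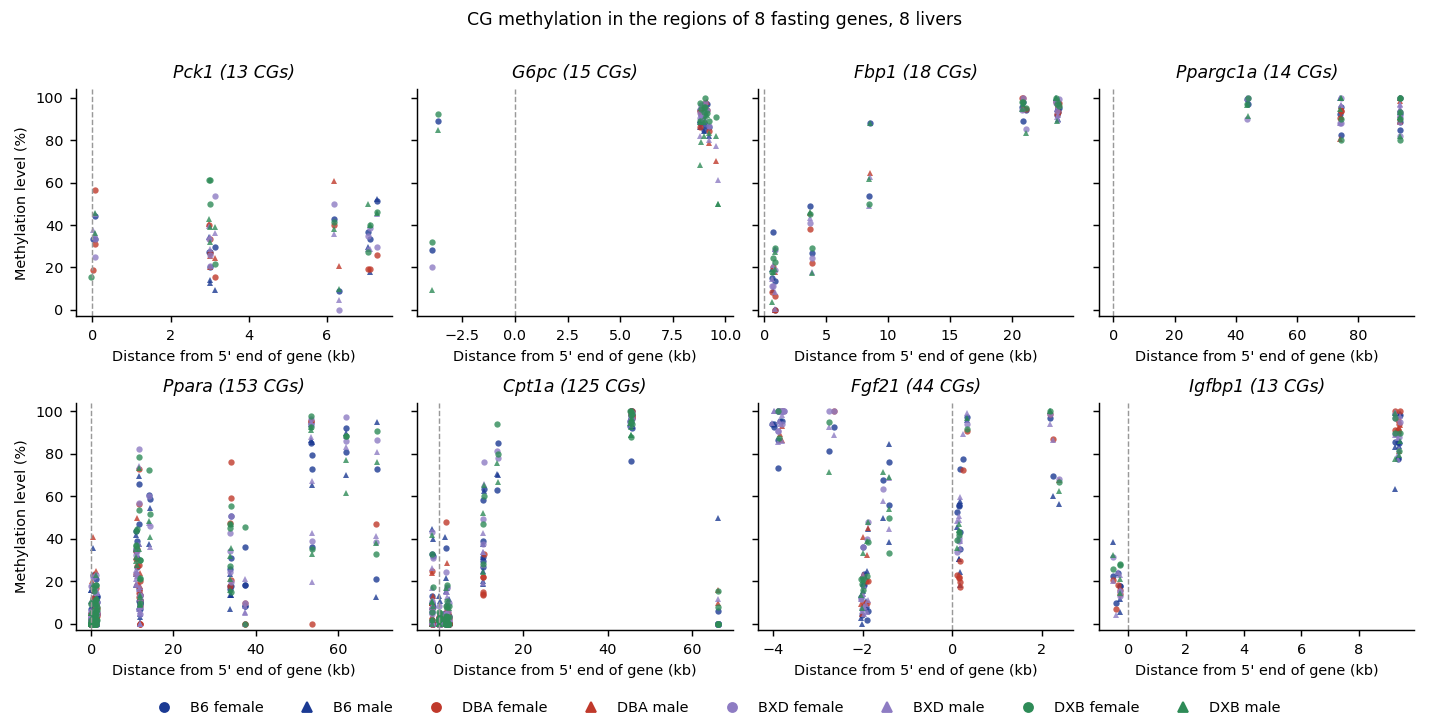
Methylation level (%) of each CG with at least 10 reads against its distance from the gene's 5′ end (kb, the dashed line), 1 panel for each gene, 1 point for each CG and mouse. Ppara and Cpt1a were near 0% at their 5′ ends and held both low and high CGs deeper in the gene, Ppargc1a had only high CGs far from its start, and all Pck1 CGs were intermediate or low.

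Coverage differed between the genes. The 16.2 kb Pck1 region held 25 CCGG sites, and 13 of its 534 CG positions (both strands counted, 2.43%) were measured. In Fgf21 44 of 332 (13.3%) were measured, in Ppara 153 of 2058 (7.43%), in Cpt1a 125 of 2046 (6.11%), in G6pc 15 of 402 (3.73%), in Igfbp1 13 of 418 (3.11%) and in Fbp1 18 of 762 (2.36%). Ppargc1a had the smallest share, 14 of 1816 (0.771%). The promoters of G6pc, Fbp1 and Ppargc1a, defined as 1000 bases before to 500 bases after a protein-coding start, had no CG at 10 reads. Methylation at those promoters was not measured here.

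Ppara (chr15:85565413-85633249, plus strand) had a low-methylated 5′ end. Of 109 promoter CGs, 108 had a mean below 20% and the median of their means was 0.643%. Over the 34 promoter CGs with 10 reads in all mice, levels were 2.15% and 3.0% in the B6 female and male, 2.29% and 5.0% in the DBA female and male, 2.44% and 0.883% in the BXD female and male, and 3.39% and 1.65% in the DXB female and male, a mean of 2.60% ± 1.24 (SD, n = 8). Every mouse was at or below 5.004%, against a median of 4.34% over the 8285 genes with a promoter CG in all mice. The CG nearest to a start, at 85565993 and directly before it, was at 0% to 1.89% in the 8 mice. The CG with the largest range, at 85565958, stood out from its neighbours. It was at 23.1% and 35.7% in the B6 female and male, 12.1% and 40.8% in the DBA female and male, 22.1% and 5.43% in the BXD female and male, and 16.7% and 18.4% in the DXB female and male. Neither strain nor cross was separate at that site.

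Levels varied along the Ppara introns, without a steady rise. The shared CGs 9834 to 10053 bases past the last start averaged 32.0% ± 5.98 (SD, n = 7 mice) and those from 12831 to 13064 bases 51.2% ± 8.41 (n = 6). The 16 CGs between these groups, at 10446 to 10799, ranged from 0% to 82.1% over single mice. Shared CGs from 32656 to 32921 bases averaged 27.8% ± 9.71 (n = 6) and those from 36120 to 36228 bases 12.1% ± 10.8 (n = 3). Body CGs at 52380 and 52405 bases averaged 92.7% ± 2.43 (n = 7). The body mean depended on which CGs were covered: it was 16.6% ± 5.97 (n = 8) over 5 CGs and 39.9% over 12 CGs without the DBA male. Over all genes with a body CG in every mouse, the median body level was 77.1%.

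Low-methylated stretches, defined as at least 4 neighbouring CGs each below 20% on average with gaps of at most 500 bases, numbered 3 in the member regions, with both strands of a CG added and 10 reads in all mice. Ppara held 2 of them. The longer covered 525 bases and 28 CGs (chr15:85565962-85566486) at 1.93% ± 1.08 (SD, n = 8), and the shorter 32 bases and 4 CGs (chr15:85565445-85565476) at 1.97% ± 1.25. The third was in the first intron of Cpt1a, 30 bases and 5 CGs (chr19:3325308-3325337) at 1.40% ± 1.11. Without the DBA male, whose library limited coverage, the Ppara stretches joined into 1 of 1576 bases and 48 CGs, and Cpt1a had 3, the first of them 12 CGs at 31 to 245 bases past the start at 1.38% ± 0.826.

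Ppargc1a (chr5:51845488-51958964, minus strand) had 3 groups of measured CGs, all in the body. The 9 coding-exon CGs farthest from the nearest start ranged from 80% to 100% over single mice, the 3 intronic CGs 60209 to 60340 bases away from 80% to 100%, and the intronic pair at 29707 and 30003 bases from 90.0% to 100%. No CG reached 10 reads in all 8 mice, so no level over all mice was formed.

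The gluconeogenic enzymes differed from one another. G6pc (chr11:101228875-101239217, plus strand) was highly methylated in its last coding exon: the 9 CGs from 8783 to 9204 bases past the start averaged from 84.7% (DXB male) to 94.0% (DXB female), a mean of 90.7% ± 3.13 (SD, n = 7). The CG nearest to the start with 10 reads in all mice, at 101238030, lay between 91.6% and 98%. The one with the largest range, at 101238079, lay between 78.4% and 88.8%. Fbp1 (chr13:62966113-62989642, minus strand) ran from low to high along the gene. CGs in the first intron, 657 to 843 bases past the upstream start, ranged from 0% to 36.5%, the pair at 3660 and 3864 bases from 17.4% to 49.0%, and the 3 shared coding-exon and intron CGs 5324 to 5606 bases past the second start averaged 95.2% ± 2.75 (n = 5). Pck1 (chr2:172978549-172984774, plus strand) was intermediate at 11 of its 13 CGs and below 20% at the other 2. Its 4 CGs next to the start, at -48 to 75 bases, ranged from 15.4% to 56.2% over single mice, each CG being covered in 1 to 5 mice, and 3 CGs past the 3′ end averaged 35.2% ± 7.46 (n = 7).

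Pck1 was the gene in which F1 mice and parents separated over all 8 mice. Over the 4 CGs of the exon and intron window, levels were 26% and 17.6% in the B6 female and male and 28.8% and 27.6% in the DBA female and male. They were 33.5% in the BXD female, 34.8% in the BXD male, 48.4% in the DXB female and 38.4% in the DXB male. All F1 mice lay above all parents, with means of 38.8% ± 6.75 (SD, n = 4) and 25.0% ± 5.06 (n = 4) and a difference of 13.7 points. An exact two-sided permutation test gave p = 0.0286, the smallest p that 4 against 4 mice allow, unadjusted in a set of 9 gene parts. Over all 9579 genes with a body CG in every mouse, every F1 mouse was above every parent in 2.06% and below every parent in 3.1%. Of the 5 member bodies measured in every mouse, the Pck1 body was the 1 with F1 mice above, and none had them below. Without the B6 male, which let 5 CGs enter, the groups still did not overlap, but the difference was 7.69 points and the call was lost (exact permutation p = 0.0571). Of the F1 mice, 3 had the short reads, and the part of read length in this difference was not tested.

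Single Pck1 CGs were thinner. At 172981543, the one nearest to the start among CGs with 10 reads in all mice, the DXB female was at 61.1% of 18 reads and the other 7 mice at 27.3% to 42.9%. At 172981555, which had the largest range, the DXB female was again at 61.1% and the others at 12.6% to 32.1%. The DBA female had only 15 reads at both sites. At 172981567, the third CG of the exon, the quasi-binomial regression gave p = 0.0396 for F1 against parents before adjustment and 0.806 after it.

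**Figure D2:**
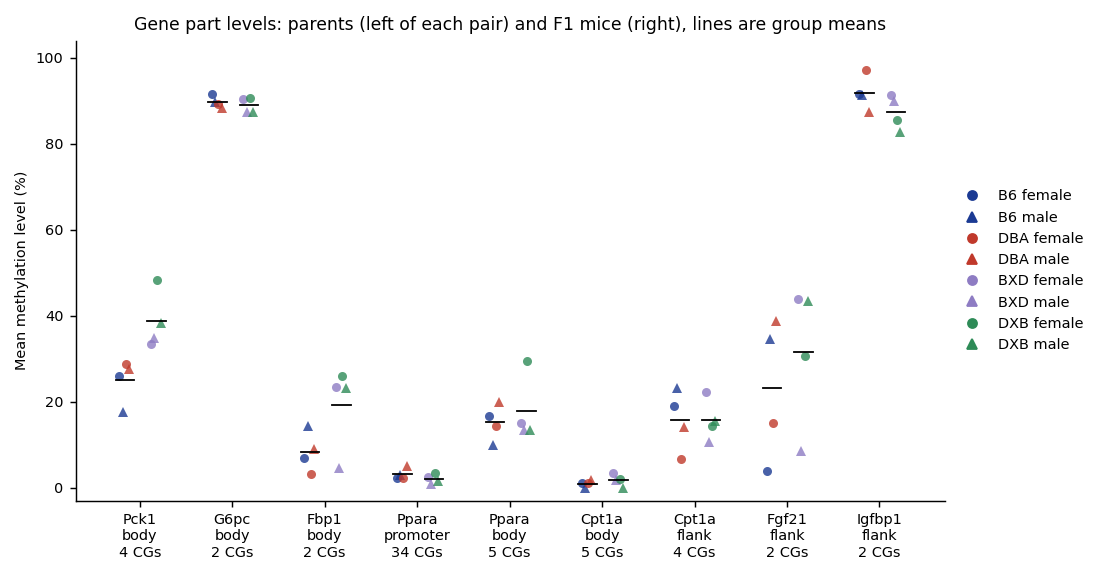
Mean methylation level (%) of each gene part over CGs with 10 reads in all 8 mice, with parents at the left and F1 mice at the right of each gene part, and lines at the group means. Only in the Pck1 body did all 4 F1 mice, from 33.5% to 48.4%, lie above all 4 parents, from 17.6% to 28.8%, and in the Fbp1 body the BXD male was at 4.53%, below 3 of the parents.

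The first intron of Fbp1 split the libraries another way. At 62988814, 828 bases past the upstream start, all 4 parents were at 0% on 38 to 195 reads, and the BXD male was at 0.435% of 230 reads. The BXD female was at 18.8% of 149 reads, the DXB female at 22.5% of 182 and the DXB male at 19.1% of 194. These 3 were the libraries with reads of 50 bases, and the part of read length in this split was not tested. At the neighbouring CG, 62988799, the same 3 mice were at 28.3%, 29.3% and 27.2%, but the B6 male reached 28.6% and the others lay between 6.54% and 17.9%. The B6 male carried mostly DBA bases near this gene. Over both CGs F1 mice averaged 19.3% ± 9.92 (SD, n = 4) and parents 8.35% ± 4.61, which did not separate them (exact permutation p = 0.114). Without the BXD male the difference was 15.8 points (p = 0.0286 by the exact permutation test over 7 mice). That left only F1 mice with reads of 50 bases, so cross and read length cannot be told apart in it.

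**Figure D3:**
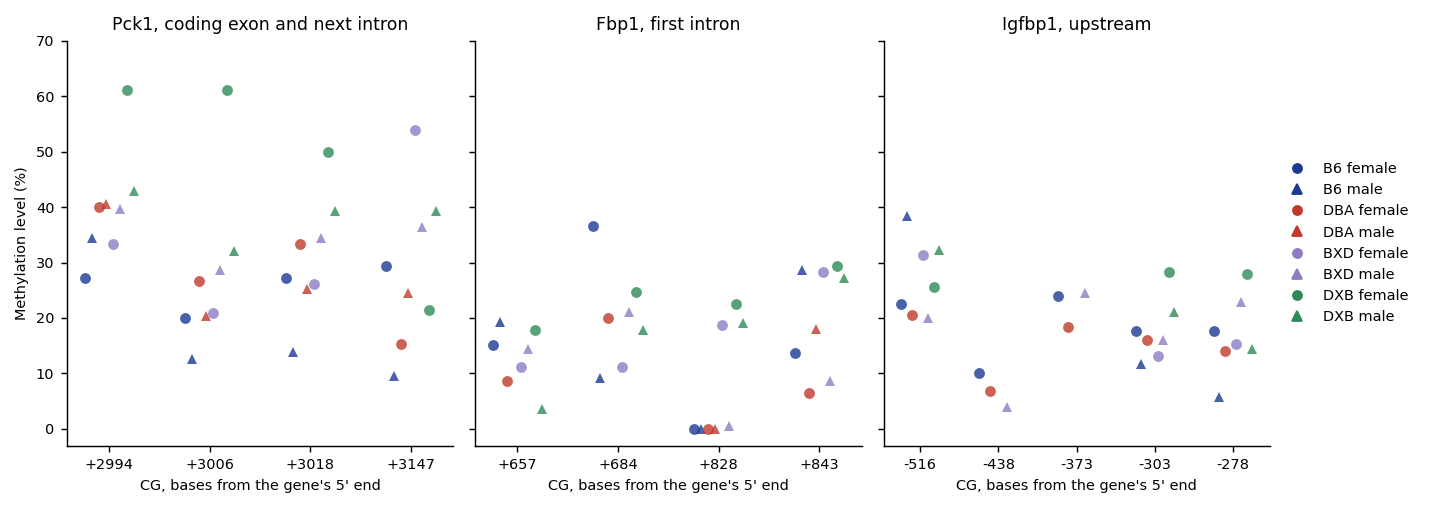
Methylation level (%) of the single CGs in the Pck1, Fbp1 and Igfbp1 windows in each mouse with at least 10 reads, by distance in bases from the gene's 5′ end. In Fbp1 the CG at +828 is at 0% to 0.435% in 5 mice and at 18.8% to 22.5% in the other 3, and in Pck1 the DXB female is the highest mouse at 3 of the 4 CGs.

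Cpt1a (chr19:3323301-3385732, plus strand) was unmethylated around its start. Of 25 CGs at 31 to 246 bases, the 21 shared by 4 mice averaged 0.764% ± 0.419 (SD), and of 40 CGs at 1453 to 2447 bases the 21 shared by 7 mice averaged 2.87% ± 1.22. Intronic CGs at 13666 and 13923 bases averaged 76.5% ± 6.94 (n = 5), and the 4 shared at 45190 to 45712 bases 97.9% ± 1.35 (n = 5). A second low group of 26 CGs lay past the 3′ end, in Mtl5, and the 10 shared by 3 mice averaged 0.908% ± 0.290 (SD). The CG with both the smallest distance to the start and the largest range among those covered in all mice was at 3321858, upstream of the gene at -1443. It was at 32.0% and 40.0% in the B6 female and male, 0% and 13.0% in the DBA female and male, 30.8% and 10.5% in the BXD female and male, and 17.4% and 8.33% in the DXB female and male. Both B6 mice were above both DBA mice, on 10 to 77 reads, but the strain effect gave p = 0.161 by quasi-binomial regression (adjusted p = 1) and p = 0.00961 by limma (adjusted p = 0.740).

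Fgf21 (chr7:52869277-52870860, minus strand) changed in level along its first exon. At 102 to 169 bases past the start the levels ranged from 17.4% to 56.1% over single mice, at 174 bases from 29.4% to 73.0%, and at 320 bases, in the coding part, from 90.6% to 99.2%. The 4 promoter CGs shared by 7 mice averaged 65.3% in the B6 female, 50.5% in the B6 male, 39.3% in the DBA female, 51.6% and 61.9% in the BXD female and male, and 54.0% and 55.9% in the DXB female and male. The B6 female was highest and the DBA female lowest, with the F1 mice between them. The B6 male was below every F1 mouse. Upstream, at -1875, all mice had 10 reads. The B6 female was at 6.00%, the DBA female at 20% of 10 reads and the BXD male at 11.4%, whereas the B6 male, DBA male, BXD female, DXB female and DXB male were at 44.7%, 45%, 48.0%, 38.7% and 47.8%. The 3 low mice were those whose reads reached 99 bases, and the part of read length in this split was not tested. F1 mice and parents overlapped (exact permutation p = 0.457 over the upstream pair).

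**Figure D4:**
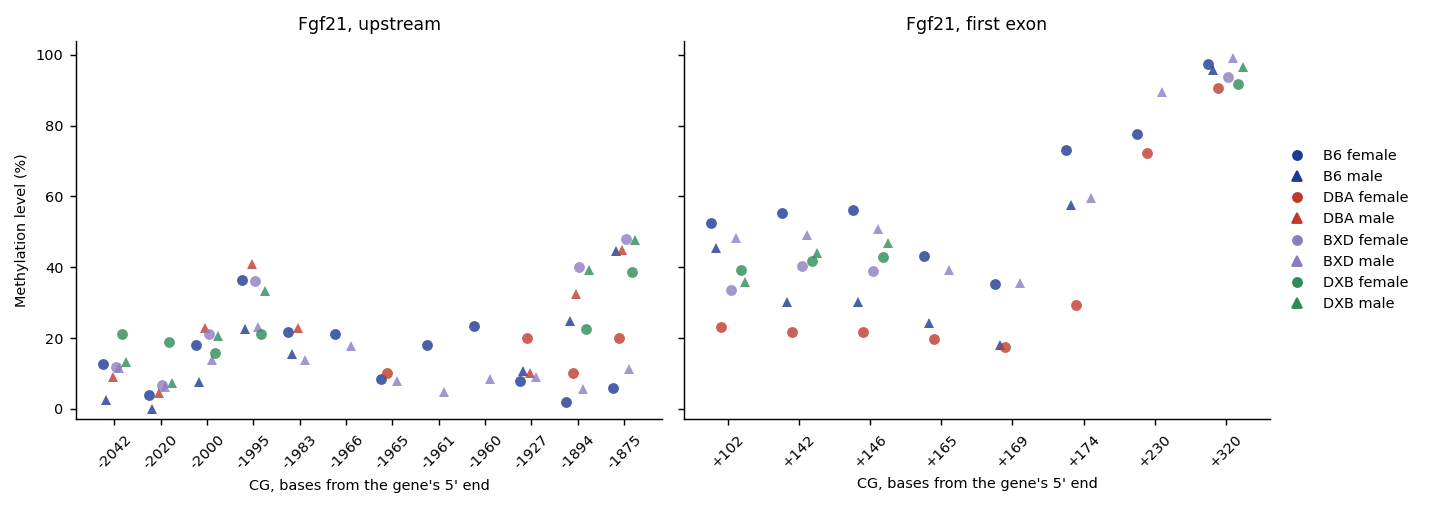
Methylation level (%) of each CG upstream of Fgf21 and in its first exon in each mouse with at least 10 reads, by distance in bases from the start. Upstream at -1875 3 mice lie at or below 20% and 5 at or above 38.7%, and in the first exon the DBA female is lowest at each CG from +102 to +174 while all mice reach 90.6% or more at +320.

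Igfbp1 (chr11:7097785-7102549, plus strand) averaged 20.6% ± 3.39 (SD, n = 7 mice) just upstream. The median was 4.34% over the promoters with a CG in all 8 mice. The 3 CGs of its window shared by 7 mice averaged 19.3% in the B6 female, 18.6% in the B6 male, 16.9% in the DBA female, 20% and 19.6% in the BXD female and male, and 27.3% and 22.6% in the DXB female and male. F1 mice and the 3 parents were at 22.4% and 18.3% on average, 4.08 points apart, and an exact permutation test gave p = 0.114. The B6 male's DBA bases near this gene, given above, bear on its place among the parents. In the 3′ flank, where Igfbp3 lies, the CG at 7107174 was at 79.5% to 94.2% in the 8 mice, and the flank mean was 89.7% ± 4.41 (SD, n = 8).

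The female parents were compared first. A CG was called, by the study's rule, when each level lay outside the exact 95% interval of the other (Clopper-Pearson, covering counting error only) and the levels were more than 50 points apart. In the member regions 1 of 266 CGs was called, against 0.549% of 887174 CGs of the genome. The median absolute difference was 1.72 points among members and 2.50 points over all CGs, while 6.02% of members and 4.37% of all CGs differed by more than 20 points. The called CG was in a Ppara intron at 85618998, the third capital pair of the Ppara sequence. The B6 female was at 79.5% of 127 reads (71.5% to 86.2%) and the DBA female at 0% of 150 reads (0% to 2.43%). All of these reads carried a strain-specific base. With only reads without such a base this CG was not tested, and 0 of 221 member CGs were called, against 0.289% of all CGs. The B6 male was at 85.4% of 82 reads and the BXD male at 42.7%. The neighbouring CGs at 52380 and 52405 bases were at 84.9% or more in both female parents. Whether a base change removes this CG in DBA was not tested.

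Between the male parents 0 of 108 member CGs were called, against 0.423% of 323010 CGs. Of the 108 CGs 67 lay in Ppara and 2 each in G6pc, Fbp1 and Igfbp1, where the library labelled B6 male carried 34.4% to 97.1% DBA bases. This count may therefore in part compare DBA with DBA sequence. Within Ppara the sorted reads of that library carried the DBA base at some CGs, as at 85565476, and the B6 base at others, as at 85566486. The source of its DBA bases was not tested. By Fisher's exact test with Benjamini-Hochberg adjustment and the same 50 points, the count was also 0 of 108, against 0.384% of all CGs. By the study's rule with 5 reads it was 1 of 161 (0.621%), against 0.682% of all CGs. At more than 30 points, 7 of 266 member CGs (2.63%) were called in females, against 1.62% of all CGs, and 1 of 108 (0.926%) in males, against 1.55% of all CGs. All 7 were higher in B6, as were 10522 of the 14356 CGs called over the genome at 30 points. Beside the Ppara CG they were the Cpt1a CG at 3321858, 2 CGs of a Cpt1a intron and 3 CGs of the Fgf21 5′ UTR.

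In the Cpt1a intron the CGs at 3333858 and 3333884 were at 58.2% and 63.6% in the B6 female and at 21.8% and 32.7% in the DBA female, on 98 to 156 reads. The B6 male was at 37.5% and 62.5% of only 16 reads, and the F1 mice at 42.9% to 52.3% and at 60.3% to 76.3%. The DBA female was thus the lowest mouse at both. In the Fgf21 5′ UTR the CGs 174, 146 and 142 bases past the start were at 73.0%, 56.1% and 55.4% in the B6 female, with 137 to 139 reads. The DBA female was at 29.4%, 21.8% and 21.7%, with 204 to 207 reads. The B6 male was at 57.6%, 30.3% and 30.3% of 33 reads, so the 2 B6 mice differed among themselves. The DBA male had under 10 reads at these 5 CGs, which leaves 1 DBA mouse. In males the CG past 30 points, at 3389398 in the Mtl5 flank of Cpt1a, was at 50% of 12 reads in B6 and 15.8% of 57 in DBA.

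Across all 8 mice, the quasi-binomial regression on strain dose and sex called 0 of 60 member CGs after Benjamini-Hochberg adjustment, and 0% of 176951 CGs of the genome. At p under 0.05 before adjustment it gave 0 of 60 members, against 3.11% of all CGs. Of the 60 CGs 39 lay in Ppara and 2 each in G6pc, Fbp1 and Igfbp1, where the library labelled B6 male carried DBA bases but entered as B6. With 1 mouse left out the regression still called 0 members. The members with p-values below 0.05 before adjustment were 0 of 67 without the B6 male (2.68% of all CGs) and 1 of 60 without the B6 female (2.505%). They were 3 of 64 without the DBA female (2.502%) and 7 of 142 without the DBA male (3.15%). Without any 1 F1 mouse they were 0, against 2.19% to 2.38% of all CGs. limma called 0 of 60 after adjustment (365 of all CGs), with 8 below 0.05 before it, against 6.40% of all CGs. For F1 mice against parents both tools called 0 of 60 members and 0% of all CGs. Before adjustment 2 member CGs had p-values below 0.05 by the regression, the Pck1 CG at 172981567 and the Fbp1 CG at 62988814, against 4.69% of all CGs. For the Fbp1 CG the quasi-binomial regression across all CGs gave an adjusted p of 0.806. By limma 2 were, against 6.49% of all CGs. Without the DBA male limma gave 21 of 142 before adjustment, against 7.46% of all CGs, and called 0 after it. Most of these were Ppara promoter CGs, where F1 mice and parents differed by at most 2.79 points, and at 85565260 all 7 mice were at 0%.

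The other 7 gene parts with CGs in all mice gave no separation of F1 mice and parents. F1 mice and parents averaged 89.0% and 89.8% in the G6pc body (exact permutation p = 0.571) and 2.09% and 3.11% in the Ppara promoter (exact p = 0.314). They averaged 17.8% and 15.3% in the Ppara body (exact p = 0.686) and 1.82% and 0.976% in the Cpt1a body (exact p = 0.314). In the flanks they averaged 15.8% and 15.7% in Cpt1a (exact p = 1), 31.7% and 23.1% in Fgf21, and 87.4% and 91.9% in Igfbp1 (exact p = 0.171).

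Reads sorted by strain-specific base gave levels of the 2 chromosome sets inside single F1 mice, mostly in Ppara. In the Ppara promoter both sets were low. At 85565476 the B6 and DBA reads were at 10.9% and 8.16% in the BXD female, 4.55% and 0% in the BXD male, 5.88% and 13.8% in the DXB female, and 0% and 3.03% in the DXB male. At the called intronic CG only the BXD male had enough reads. Its B6 reads were at 82.5% of 103 (73.8% to 89.3%) and its DBA reads at 0% of 96 (0% to 3.77%), beside 79.5% and 0% in the female parents. Sorted reads from 1 animal are no replicates, and these values were not tested.

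Other Ppara CGs went both ways. At 85599253, in an intron, the B6 and DBA reads were at 37.1% and 30.8% in the BXD female, 40% and 51.9% in the DXB female, and 22.7% and 18.8% in the DXB male, beside 18.3% in the B6 female and 47.6% in the DBA female. At 85599217 the order was also mixed between F1 mice. At 85618966 the BXD male had 91.3% in B6 and 84.4% in DBA reads, where the B6 female was at 84.9% and the DBA female at 95.3%. A pair of CGs past the 3′ end, chosen after their values were seen, had the DBA reads higher in each F1 mouse that could be read. At 85634758 the DBA reads were at 50.8%, 50%, 40.9% and 46.2% in the BXD female, BXD male, DXB female and DXB male, and the B6 reads at 22.6%, 35.9%, 18.2% and 34.5%. The DBA set was higher in all 4 F1 mice, as it was between the female parents, at 46.9% in DBA and 21.7% in B6. The intervals of the 2 sets overlapped in all but the BXD female. The library labelled B6 male went the other way: its reads carried the DBA base and were at 12.7% of 55. At the next CG its DBA-base reads were at 94.9% of 39. At 85634946 the DBA reads were at 100%, 100% and 92.6% in the BXD female, DXB female and DXB male and the B6 reads at 77.8%, 85.2% and 71.1%.

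**Figure D5:**
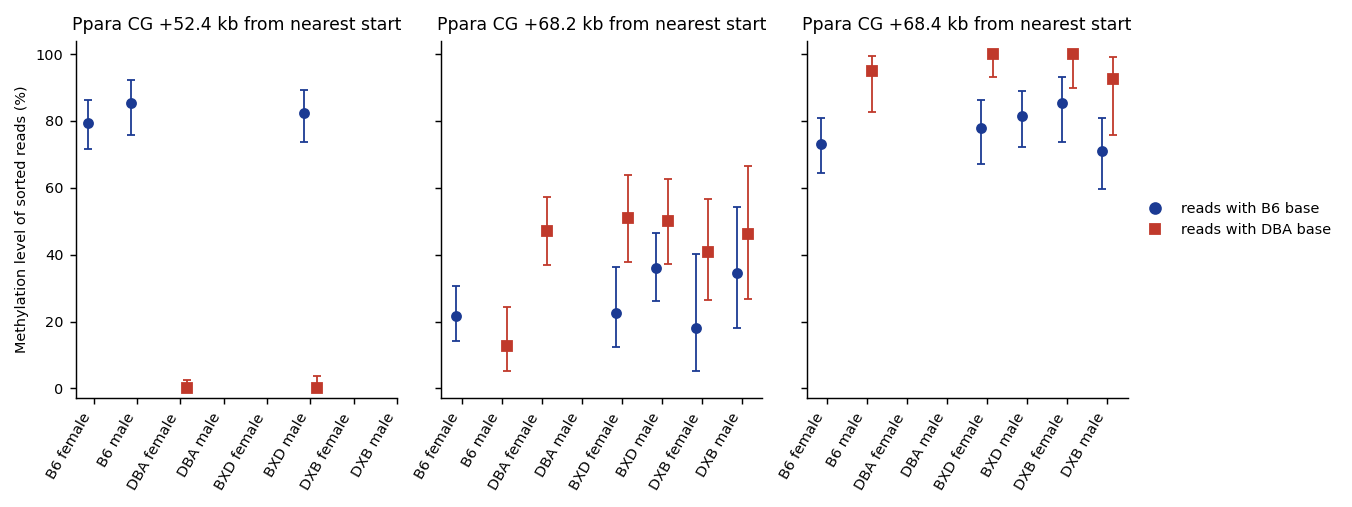
Methylation level (%) of reads that carry the B6 or the DBA base, with exact 95% intervals, at the called Ppara intronic CG and at the pair of CGs past the 3′ end, for each mouse with at least 10 such reads. DBA reads are at 0% at the intronic CG, and above the B6 reads of the same mouse at both CGs past the 3′ end.

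Among F1 mice only the BXD male had 10 or more sorted reads of each kind in Fgf21. Its B6 and DBA reads were at 14.3% and 7.69% at -1875 and at 100% and 98.2% at 320 bases. In G6pc that mouse had 17 B6 and 14 DBA reads at the 3′ UTR CG 101238426, at 70.6% and 85.7%. At the next, 101238507, the same reads were at 70.6% and 50%, the opposite order. The other 5 genes had no CG with 10 sorted reads in an F1 mouse.

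The wider pathway was read from 49 other genes, listed with earlier results of these data known: 16 of gluconeogenesis, 4 of ketogenesis, 10 of fatty acid oxidation and 19 of hormone and fasting signals. They held 3679 CGs at 10 reads, and Tat had none. This and the CG counts that follow are sums over genes. CGs shared by the neighbours Hadha and Hadhb, among them their promoter CGs, count under both. Between female parents 6 of 2331 CGs were called (0.257%, against 0.549% of all CGs), all higher in B6, in 6 genes. Over the genome 4420 of 4868 such calls were higher in B6. Between male parents 2 of 889 were called (0.225%, against 0.423% of all CGs), 1 in each direction. The DBA share of the library labelled B6 male was not computed around these genes. This male count may therefore in part compare DBA with DBA sequence. Got1, the cytosolic aspartate aminotransferase, had 2 calls, 1 in each sex, and Mdh2, Acadl, Insr, Lpin1, Sds and Tpi1 had 1 each. Ketogenesis genes had none in 158 CGs of the females. The strain and F1 regressions, in which the library labelled B6 male entered as B6, called 0 of 420 CGs. Of the 27 genes with a promoter CG in all mice, 21 were below 20%, beside 85.6% of the promoters of all genes, with a median of 5.53%, and the median body level was 45.7%. The other 6 were Fbp2 (88.6%), Lpin1 (51.6%), Slc25a20 (36.5%), Bdh1 (32.1%), Klb (21.4%) and Tpi1 (20.2%), named after their values were seen.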

How the data were processed

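RRBS libraries were made by the authors from liver DNA of 8 mice cut with MspI, with fragments chosen by size, and uniquely aligned reads were placed on mm9 with BS Seeker. The deposited tables hold raw counts of methylated and unmethylated reads for each cytosine, split by whether a read carried a B6 base, a DBA base, neither or an unclear one. Counts were summed over these classes, without normalization. Deposited tables of the authors' own strain and imprinting comparisons were not used. All 1469643 CG positions matched a CG of the NCBIM37 (mm9) genome. PCR copies cannot be told from separate molecules, so intervals cover counting error only.

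The members and lists were chosen with earlier results of these data known. CGs needed 10 reads. Parents were compared by the study's rule. Strain dose and F1 were tested by quasi-binomial regression with sex as a term, and by limma 3.58.1 on log2 ratios with 1 added to each count, with Benjamini-Hochberg adjustment over all CGs tested. Gene parts were compared by exact permutation over mice. Described were all CGs called and, among CGs with 10 reads in all mice, the one nearest to a start and the one with the largest range in each gene. Ppargc1a had none of these. Each strain and sex had 1 mouse, so p-values rest on 4 strains and crosses of 2 mice. Alternatives were other read minimums, thresholds, promoter widths, summed strands, and leaving out each mouse. The tests were checked on simulated data. Python 3.11.15, SciPy 1.17.1 and R 4.3.3 were used. Single values of a few listed genes are not reported here.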

Additional observations from a re-analysis of the deposited data

Results flagged for a closer look

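Among groups of 4 F1 mice or 4 parents, a mouse was singled out when its gap to the nearest other exceeded Dixon's 95% limit. Of 38 groups tested, 4 did. Some groups share CGs and some CGs were taken for their large range between mice, so this count cannot be set against chance. The BXD male was low in the Fbp1 body, at 4.53% against 23.1% to 25.9% in the other F1 mice. The same mouse was low at the Fbp1 CGs 62988814 (0.435% against 18.8% to 22.5%) and 62988799 (8.62% against 27.2% to 29.3%), which make up that body level. It is also the F1 mouse whose reads reach 99 bases and not 50. The DXB female was high in the Ppara body, at 29.5% against 13.3% to 15.1%.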

How the results depend on the processing

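Precision was limited by coverage: 60 CGs had 10 reads in all mice, the DBA male was the thinnest library, and gene part levels changed with the CGs that entered. Calls between female parents went from 1 of 266 to 7 of 266 at 30 points (1.62% of all CGs). They went to 0 of 221 with reads without a strain-specific base (0.289% of all CGs). Male calls went from 0 of 108 to 1 of 161 with 5 reads (0.682% of all CGs) and to 1 of 108 at 30 points (1.55%). The regressions and limma called 0 members under every setting run, while strain p-values below 0.05 before adjustment went from 0 of 60 to 7 of 142 without the DBA male, and those of F1 by limma from 2 of 60 to 21 of 142. Stretches went from 3 to 5 with 3 CGs or 5 reads and to 1 with 6 CGs, and ranged from 2 to 4 with 1 mouse left out.

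With 5 reads the mean level was 37.9% in the Ppara body, 3.19% in the Cpt1a body, 5.53% in the Cpt1a flank and 44.0% in the Fgf21 flank, and with 20 reads 33.8% in the Cpt1a flank. With each mouse's own CGs it was 40.5% in the Fbp1 body, 32.5% in the Ppara body, 21.3% in the Cpt1a body, 6.59% in the Cpt1a flank and 54.5% in the Fgf21 flank. The Ppara body was at 10.1% with promoters from 500 before to 200 after and at 4.67% from the gene's 5′ end only. With 1 mouse left out, the Pck1 body difference ranged from 7.69 to 15.5 points (lost without the B6 male). The Fbp1 body difference ranged from 4.13 to 15.8 points. It was called only without the BXD male, the F1 mouse that overlapped the parents and whose reads reached 99 bases. The mean levels ranged from 12.1% to 23.8% in the Fbp1 body, 14.7% to 39.9% in the Ppara body, 1.12% to 14.9% in the Cpt1a body and 20.7% to 49.9% in the Fgf21 flank. The last 3 were highest without the DBA male and the first without the B6 male, when other CGs entered. The labels number no replicates. Sex was a term in the regressions, and permutation tests blocked by sex were not run. The setting with libraries whose reads reach past 60 bases, and limma without the DBA male, were chosen after seeing the data. Those libraries are part of the 8 that gave each mean and SD, so a shift within 1 SD was bound to result. The Fbp1 body fell from 13.8% to 7.58%. The part of read length in these levels was not tested.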
